A study of Mus musculus with 6 samples.

Results

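The 7 genes described here are the 3 mammalian transforming growth factor beta (TGF-beta) ligand genes Tgfb1, Tgfb2 and Tgfb3, the integrin subunit genes Itgb6 and Itgav, and the CD200 ligand and receptor genes Cd200 and Cd200r1. They were selected by symbol from the 32285 genes in the count matrices, and all 7 were found in all 6 matrices. Whole skin without hypodermis, dissociated after shaving, was taken from untreated adult female mice aged 17 to 18 weeks and labelled C57/BL6. The groups were wild type (WT), mice deleted for the Il2ra upstream enhancer (UP_Del) without alopecia, and UP_Del mice with alopecia. Il2ra encodes the alpha chain of the interleukin-2 receptor. Live cells were sorted as CD45+ or CD45-, CD45 being the surface protein carried by leukocytes, and each group gave 1 single-cell RNA library per sort. Both UP_Del groups carry the deletion, the labels name no promoter or Cre that would limit it to a cell type, and the number of mice behind a library is not given in the sources used here.

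TGF-beta is secreted in a latent form, held inactive by its own propeptide and tethered to matrix or cell-surface carrier proteins. Integrins that contain the alpha v chain, in epithelium mainly the pair of alpha v with beta 6, bind an Arg-Gly-Asp (RGD) motif in the propeptide and release the active cytokine, which restrains T cells and, in the follicle, promotes regression of the hair. CD200 is a membrane glycoprotein that passes an inhibitory signal to cells bearing the CD200 receptor, and both systems are counted among the guardians of immune privilege in the hair follicle.

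The stretch of coding sequence around the RGD motif is shown because it is what the product of Itgb6 and Itgav recognises, and because the 3 ligand genes differ in it. The sequences are from the GENCODE vM21 transcripts on build GRCm38, 5′ to 3′ on the coding strand, with the codons for Arg, Gly and Asp in capitals.
Tgfb1-201: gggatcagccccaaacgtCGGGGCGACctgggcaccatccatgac
Tgfb3-201: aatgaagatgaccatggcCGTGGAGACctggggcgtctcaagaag
The Tgfb1 stretch lay at chr7:25696995-25697168 on the plus strand, with its 45 bases split by an intron between exons 4 and 5 of 7, and the motif began at codon 244 of 390. The Tgfb3 stretch lay within exon 5 of 7 at chr12:86062147-86062191 on the minus strand, and its motif began at codon 261 of 412. Neither of the 2 complete reading frames of Tgfb2, of 414 and 442 codons, encoded an Arg-Gly-Asp motif.

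On GRCm38 the genes lie at chr7:25687002-25705077 (Tgfb1), chr1:186622792-186705989 (Tgfb2), chr12:86056745-86079041 (Tgfb3), chr2:60598292-60722643 (Itgb6), chr2:83724397-83806916 (Itgav), chr16:45382135-45409053 (Cd200) and chr16:44765736-44794978 (Cd200r1). All 7 are annotated as protein-coding and none overlaps another gene on its own strand. Tgfb2, Tgfb3 and Itgav have antisense neighbours, and whether counting used strand is not given in the sources used here.

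After filtering, 40956 cells remained, 3234 to 14447 per library, with median depths of 4082.5 to 5658 unique molecular identifiers (UMIs, 1 per captured RNA molecule). Filtering removed 26.7%, 7.56% and 30.4% of the CD45- barcodes of the WT, no-alopecia and alopecia libraries. Any 2 of the 6 libraries shared 24 to 228 cell barcodes, at most 2.57% of the smaller library. Ptprc, the gene for CD45, stood at 1.06, 0.0684 and 0.190 CPM (UMIs per 1000000 UMIs of the same cells) in the CD45- libraries, given here and below in the order WT, no alopecia and alopecia, and at 790, 657 and 721 CPM in the CD45+ libraries. Il2ra in regulatory T cells stood at 930, 385 and 393 CPM. Over the 32 classes named from marker genes, 226 of 234 markers were higher than in the rest of their sort. Hair shaft cells lacked detectable Krt34 and Krtap3-1. The matrix class was named from Msx1 and Dlx2, the latter not on the list of matrix markers. Its score for melanocyte markers, 2.16, lay slightly above that for matrix markers, 2.11. Interfollicular basal keratinocytes made up 128, 2777 and 330 cells of their libraries.

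Levels are UMIs of a gene summed over the cells of a class in 1 library, as CPM of those cells. With 1 library per group and sort there is no replicate, so no test was made and no p-value is given, and every interval is an exact 95% interval for counting error only. A level was counted as higher or lower in a comparison when it was at least 1.5-fold apart with an interval that excluded equal levels, among pairs with at least 20 UMIs together and at least 20 cells in each class. Levels of different genes are not compared with each other, since they are not per length.

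**Figure D1:**
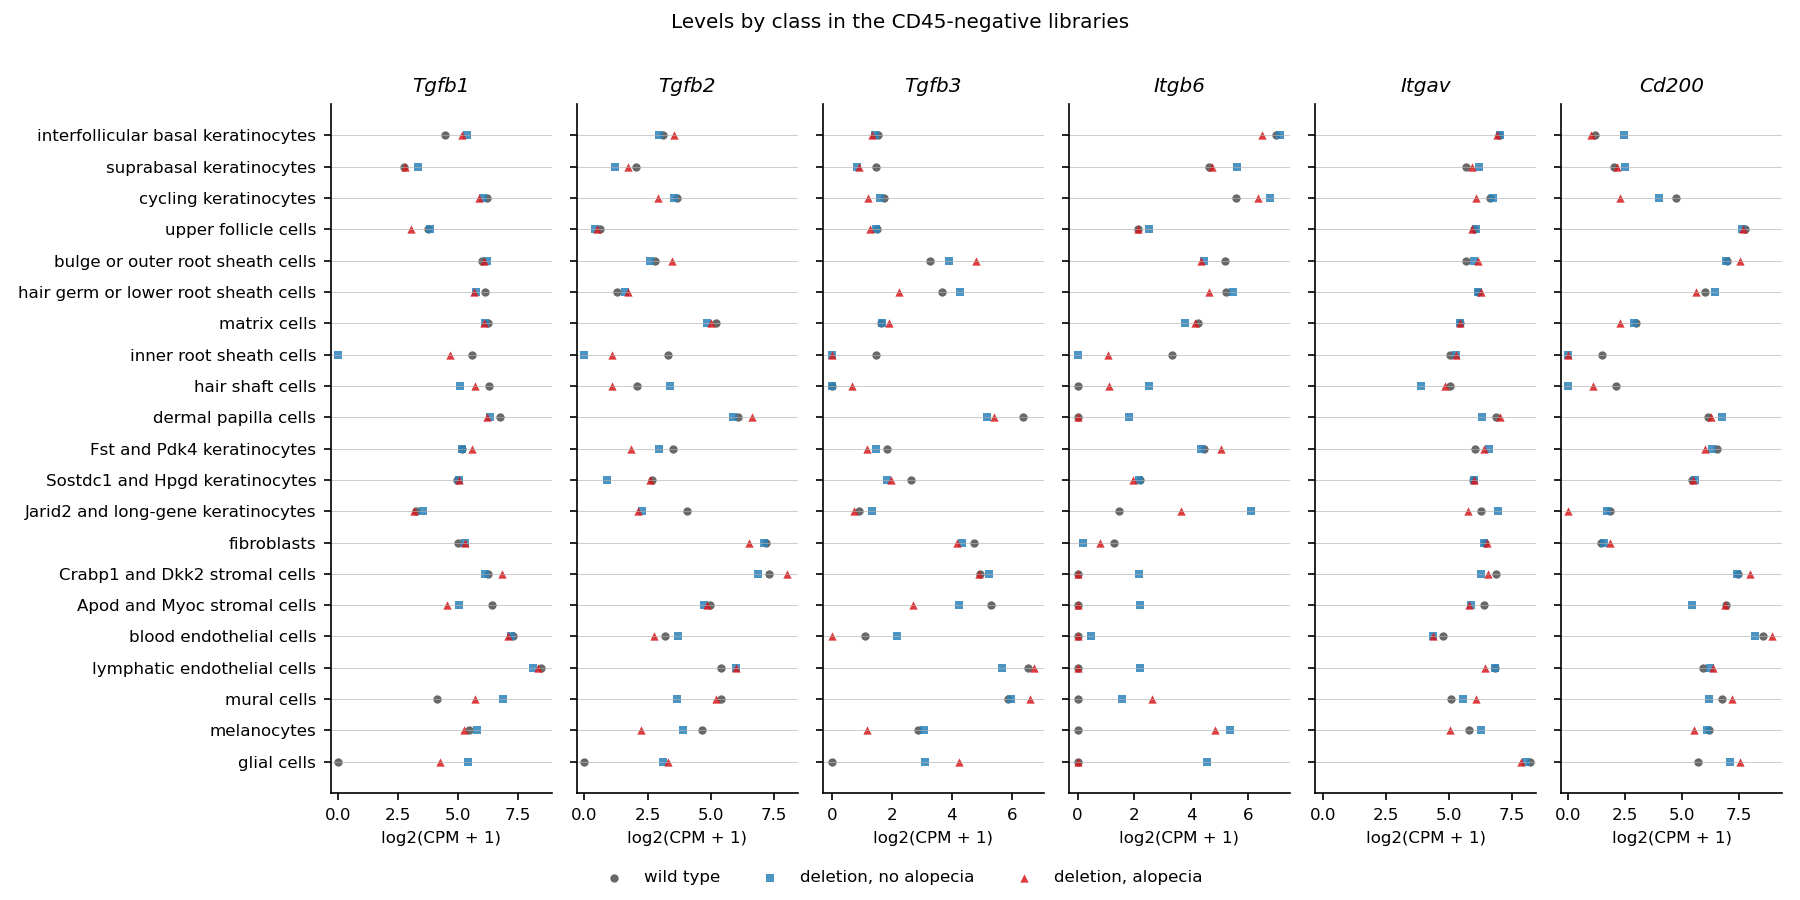
Level of each gene, as log2(CPM + 1), in the cell classes of the CD45- libraries, 1 point per library (grey circle, wild type; blue square, deletion without alopecia; red triangle, deletion with alopecia). Tgfb1 is highest in lymphatic endothelium, Tgfb2 in Crabp1 and Dkk2 stromal cells and fibroblasts, Itgb6 in basal keratinocytes, and Cd200 in blood endothelium and upper follicle. Some levels rest on 0 to a few UMIs, such as Cd200 in inner root sheath cells (1 UMI over the libraries) and Itgb6 in glia (6 UMIs in the no-alopecia library). Itgav in glia, the highest class for that gene, rests on 122 UMIs.

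Tgfb1, the ligand best known from leukocytes, was carried mainly by the CD45+ sort, at 530, 604 and 407 CPM in WT, no-alopecia and alopecia libraries, against 47.7, 41.3 and 45.2 CPM in the CD45- sort. In the alopecia library Tgfb1 was lower than in the no-alopecia library in all 18 CD45+ classes compared. In 11 of the 18 the difference reached 1.5-fold, 3 of them classes of 2 clusters that stayed under 1.5-fold within the clusters compared, and Tgfb1 was higher in 0. Over all genes and CD45+ classes, 4.14% of pairs were lower by the same rule in this comparison and 5.55% higher. The median log2 ratio of Tgfb1 over the classes was -0.65, beside 0.065 over all genes. Of 2494 genes compared in every one of these classes, 56 (2.25%) were lower in all of them and 41 (1.64%) were higher in all.

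CD8 T cells, which kill target cells that present foreign or self peptides, held Tgfb1 at 519, 778 and 340 CPM. The alopecia library was the lowest and the no-alopecia library the highest, a log2 ratio of -1.19 (-1.48 to -0.90) between them. These sums came from 444, 58 and 141 cells. In innate lymphoid cells the levels were 958, 1186 and 684 CPM, with intervals of 911 to 1008, 1113 to 1262 and 650 to 720, so the 3 libraries did not overlap. Conventional CD4 T cells followed the same order at 744, 1029 and 630 CPM, as did gamma delta T cells led by Tcrg-V6 RNA at 669, 879 and 554 CPM. Regulatory T cells, which depend on interleukin-2 and use TGF-beta among their suppressive tools, held 650, 691 and 507 CPM, and their log2 ratio of alopecia to no alopecia of -0.45 did not reach 1.5-fold. The highest summed level of Tgfb1 in the WT library was in Gzmc-high lymphoid cells, at 1020, 1140 and 853 CPM. Innate lymphoid cells were the next class in the order. The ranges of the 2 classes over the 3 libraries overlapped, at 853 to 1140 CPM and 684 to 1186 CPM. In the alopecia library alone, the Gzmc-high level of 853 CPM lay above the innate lymphoid interval of 650 to 720 CPM. RNA of the T-cell receptor complex, at 3 UMIs or more, was present in 38.2%, 43.3% and 41.8% of innate lymphoid cells, and its part in their levels was not tested.

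In gamma delta T cells led by Trdv5 the level was 657, 805 and 479 CPM, a log2 ratio of -0.75 between the deletion libraries. This class joined 2 clusters in unequal proportions, which held 242, 436 and 314 CPM and 1146, 982 and 762 CPM. Within them the log2 ratios of alopecia to no alopecia were -0.47 and -0.37, which did not reach 1.5-fold, and WT was the lowest library in one and the highest in the other. The main cluster of the Tcrg-V6 class, 82.6%, 89.1% and 73.3% of its cells, held Tgfb1 at 735, 929 and 647 CPM, a log2 ratio of alopecia to no alopecia of -0.52, under 1.5-fold. Lymphoid cells led by Klra genes, which stayed unnamed, reached 1.5-fold as a class, at 902 against 588 CPM. One of their 2 clusters made up 63.7% of the class in no alopecia and 44.1% in alopecia, and within the clusters Tgfb1 went from 1141 to 858 and from 430 to 350 CPM, log2 ratios of -0.41 and -0.30. In the main cluster of innate lymphoid cells the ratio, -0.80, was as large as in the class.

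Among myeloid cells, macrophages held 455, 495 and 321 CPM of Tgfb1, and Langerhans cells, the dendritic cells of the epidermis that depend on TGF-beta for their residence, 402, 483 and 298 CPM. Type 1 dendritic cells, specialised in presenting antigen to CD8 T cells, held 322, 441 and 248 CPM, and type 2 dendritic cells 480, 524 and 367 CPM. The alopecia library was the lowest of the 3 in each of these classes. RNA of the T-cell receptor complex, at 3 UMIs or more, was present in 70.9%, 64.0% and 56.2% of macrophages and 70.9%, 64.3% and 56.4% of Langerhans cells, lower in alopecia as Tgfb1 was. In type 2 dendritic cells it was present in 72.0%, 59.2% and 61.4%, and Tgfb1 was lower in alopecia there too. Without those cells, Tgfb1 went from 290 to 146 CPM in Langerhans cells (log2 ratio -0.99) and from 387 to 264 CPM in macrophages (log2 ratio -0.55, under 1.5-fold). Type 1 dendritic cells held such RNA in 40.8%, 51.3% and 41.5% of cells. Leaving those out brought the no-alopecia library under the minimum of 20 cells, so that class could not be compared without them.

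Against WT, the no-alopecia library had more Tgfb1 in all 18 CD45+ classes compared, by a median log2 ratio of 0.30, and the difference reached 1.5-fold in 2 of them, CD8 T cells and the Cd4+ T cells led by hemoglobin RNA. In that comparison 3.88% of all gene and class pairs in the sort were higher by the rule, and 18 of 2282 genes (0.789%) were higher in every class. The alopecia library was below WT in 19 of 20 classes, by a median log2 ratio of -0.34, and reached 1.5-fold in 3: CD8 T cells, migratory dendritic cells (273 against 158 CPM) and the mixed or shallow lymphoid clusters. RNA of the T-cell receptor complex was present in 45.1% of migratory dendritic cells in WT and 23.1% in alopecia, and without those cells their log2 ratio was -0.78 with an interval, -1.61 to 0.05, that included equal levels. Of all pairs there, 4.69% were lower and 4.63% higher. The comparisons share libraries, so they are not independent of each other.

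**Figure D2:**
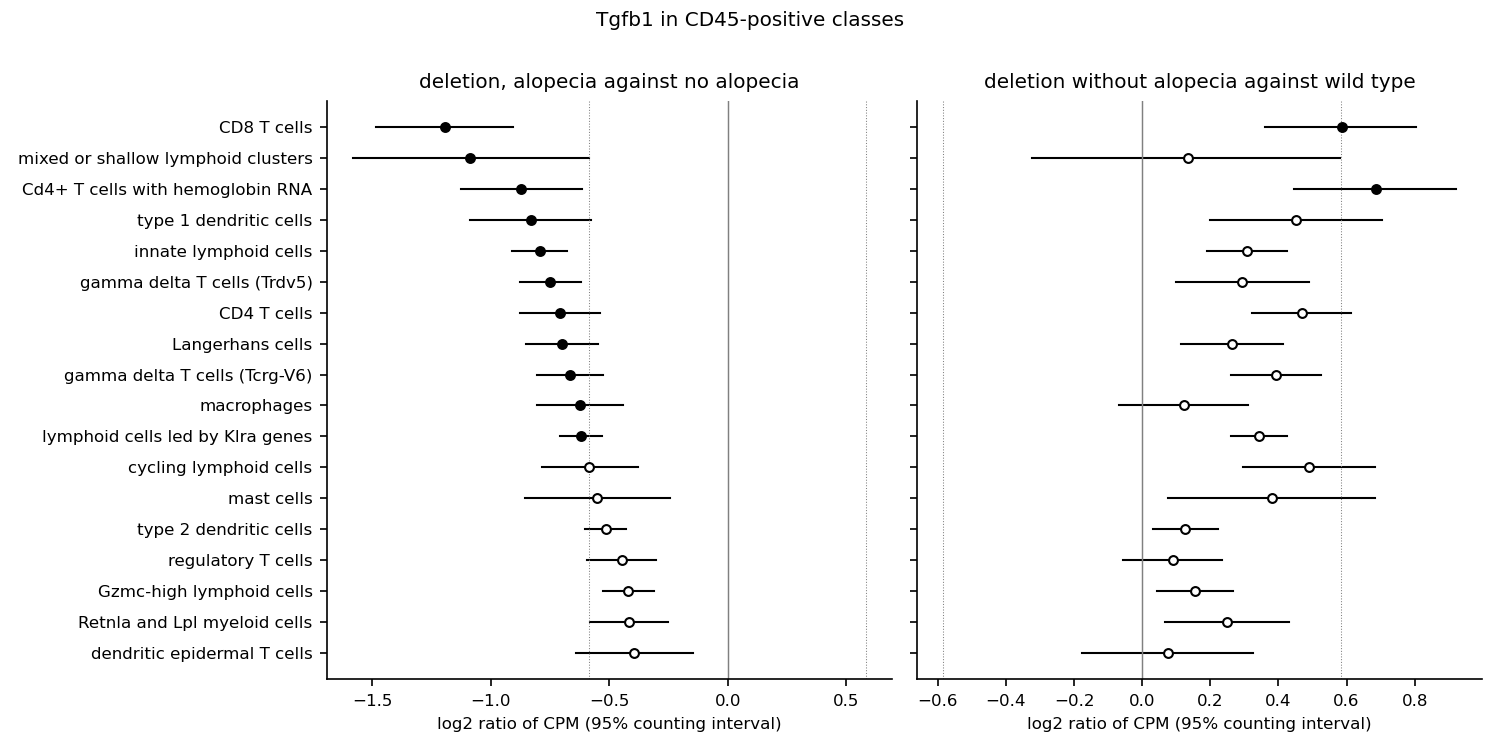
Log2 ratio of Tgfb1 between libraries in each CD45+ class, with 95% counting intervals; filled points are at least 1.5-fold apart with an interval off 0, and dotted lines mark 1.5-fold. All 18 classes lie left of 0 for alopecia against no alopecia (left) and right of 0 for no alopecia against wild type (right).

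**Figure D3:**
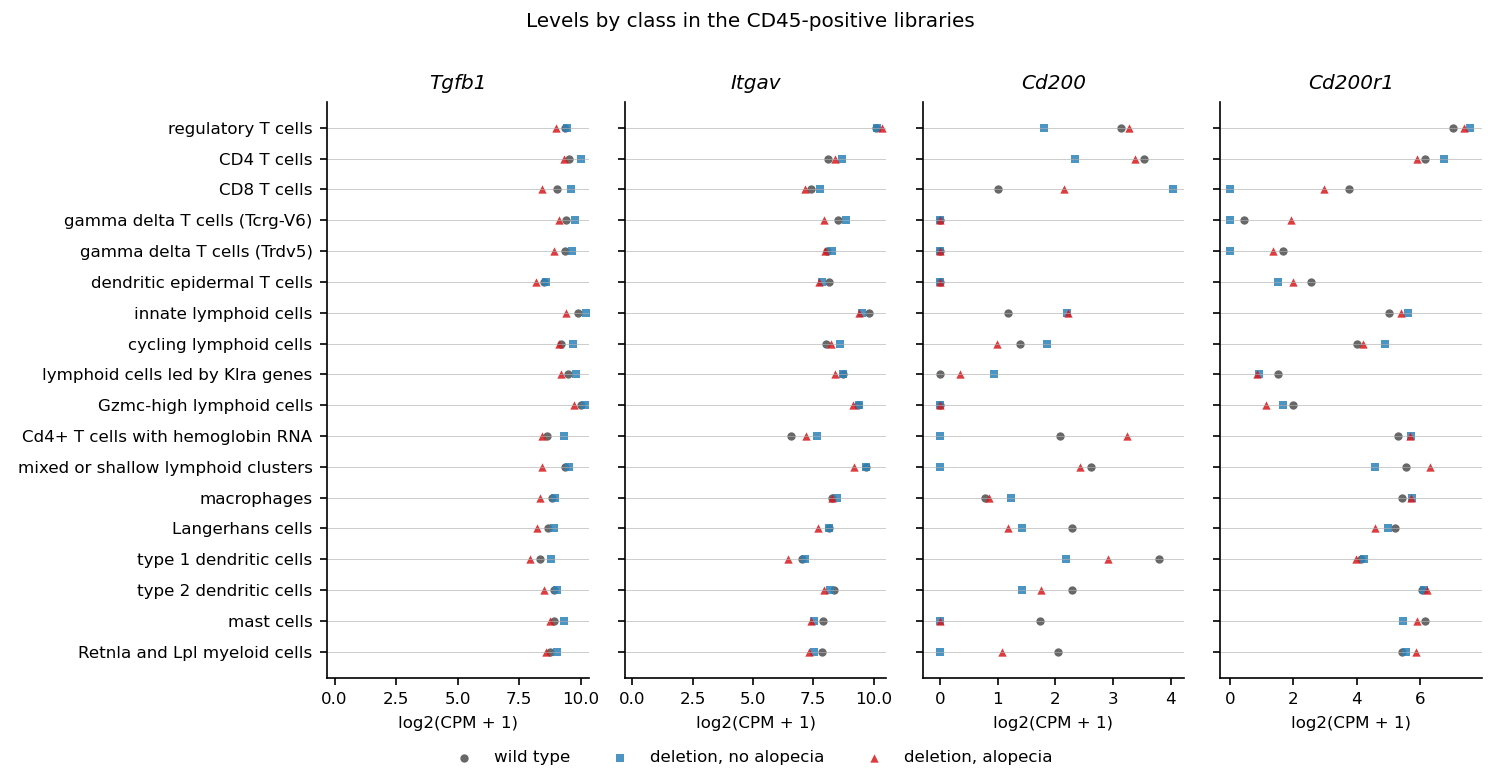
Level of Tgfb1, Itgav, Cd200 and Cd200r1, as log2(CPM + 1), in the classes of the CD45+ libraries, 1 point per library (grey circle, wild type; blue square, deletion without alopecia; red triangle, deletion with alopecia). Tgfb1 and Itgav are present in every class, Cd200r1 is highest in regulatory T cells, and Cd200 stays under 16 CPM in every class drawn.

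Outside leukocytes, lymphatic endothelial cells held the most Tgfb1, at 356, 279 and 320 CPM, followed by blood endothelial cells at 157, 149 and 135 CPM. Neither class differed by 1.5-fold between any 2 libraries. In the follicle, Tgfb1 stood at 107, 81.0 and 72.4 CPM in dermal papilla cells, the signalling mesenchyme at the follicle base, at 75.3, 69.9 and 66.9 CPM in matrix cells, which build the shaft, and at 64.1, 74.0 and 67.4 CPM in bulge or outer root sheath cells, which include the stem cells. The counting intervals of these 3 classes overlapped along the order of levels. Upper follicle cells were far lower, at 12.7, 13.4 and 7.36 CPM, and the alopecia library was the lowest there with a log2 ratio of -0.87 (-1.44 to -0.33) to no alopecia. In Crabp1 and Dkk2 stromal cells, which stayed unnamed, Tgfb1 was at 75.4, 69.5 and 115 CPM, with the alopecia library the highest. Basal keratinocytes held 20.8, 40.9 and 35.2 CPM, higher in both deletion libraries than in WT (log2 ratios 0.97 and 0.76). Mural cells, the contractile cells around vessels, held 16.4, 115 and 51.1 CPM. These came from 27, 165 and 35 cells with 121726, 520206 and 195817 UMIs of all genes, so the WT level rests on a few UMIs.

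Tgfb2, a ligand known for its part in follicle regression, was a gene of the stroma and the dermal papilla. Crabp1 and Dkk2 stromal cells held 154, 114 and 259 CPM, with counting intervals of 129 to 183, 100 to 129 and 229 to 292. The alopecia library lay above both others, by log2 ratios of 1.19 to no alopecia and 0.75 to WT. The same class therefore held more Tgfb1 and more Tgfb2 in the alopecia library. Fibroblasts moved the other way, at 142, 135 and 90.5 CPM, lower in alopecia than in WT by a log2 ratio of -0.65. Between the deletion libraries, fibroblast Tgfb2 was lower in each of its 3 clusters, from 162 to 111, from 134 to 88.6 and from 47.7 to 34.7 CPM, and only the decrease from 134 to 88.6 CPM reached 1.5-fold.

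Dermal papilla cells held Tgfb2 at 65.9, 58.2 and 98.1 CPM, from 16, 23 and 61 UMIs in 24, 45 and 61 cells. The alopecia library was the highest, with a log2 ratio of 0.75 to no alopecia whose interval, 0.04 to 1.51, nearly reached 0. Matrix cells held 36.0, 27.9 and 31.1 CPM and lymphatic endothelial cells 40.9, 62.9 and 63.4 CPM, without a 1.5-fold difference. Melanocytes, the pigment cells, held 23.7, 14.0 and 3.74 CPM, the last from 3 UMIs. Basal keratinocytes were at 7.58, 6.63 and 10.6 CPM, higher in alopecia than in no alopecia by a log2 ratio of 0.68. In upper follicle cells Tgfb2 was 0.517, 0.328 and 0.398 CPM, the lowest mean of the 3 libraries in the CD45- sort and a level that free RNA in the droplets can carry. All leukocyte classes together held 14, 3 and 4 UMIs.

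Tgfb3 was highest in lymphatic endothelium, mural cells and the dermal papilla, while blood endothelial cells held 1.16, 3.52 and 0 CPM. Lymphatic endothelial cells held 91.2, 49.6 and 105 CPM, lower in no alopecia than in either other library, with log2 ratios of -0.88 to WT and, for alopecia against no alopecia, 1.08. Mural cells held 57.5, 61.5 and 97.0 CPM, which did not differ by the rule. In dermal papilla cells the order differed, at 82.4, 35.4 and 41.8 CPM, and both deletion libraries were below WT, by log2 ratios of -1.22 and -0.98. Bulge or outer root sheath cells held 8.74, 14.1 and 27.2 CPM. Alopecia was the highest, with log2 ratios of 0.95 (0.25 to 1.61) to no alopecia and 1.64 (0.33 to 3.20) to WT. In the main bulge cluster alone, Tgfb3 went from 15.7 to 30.4 CPM between the deletion libraries. Crabp1 and Dkk2 stromal cells, where Tgfb1 and Tgfb2 were higher in alopecia, held Tgfb3 at 29.9, 36.9 and 29.1 CPM.

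Itgb6 encodes the beta 6 chain, which pairs with alpha v alone, and was a keratinocyte gene. Basal keratinocytes held 126, 136 and 88.3 CPM, with counting intervals of 109 to 144, 132 to 140 and 79.3 to 98.1. The alopecia library was below both others, by a log2 ratio of -0.63 to no alopecia and by less than 1.5-fold to WT. Of 9 CD45- classes compared as wholes between alopecia and WT, Itgb6 was lower by the rule in 0 and higher in 2. Itgb6 was present as 1 UMI or more in 51.6%, 50.3% and 40.9% of basal cells, and after thinning every cell to 1000 UMIs in 9.38%, 10.5% and 7.88%, with intervals that overlapped. UMIs of Itgb6 and Itgav were found in the same basal cell in 36.7%, 36.2% and 27.9% of cells, at median depths of 12066.5, 9920 and 11445 UMIs.

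The basal class joined 3 clusters with different levels of Itgb6. The cluster led by Ptgs2, Ifi202b and Adam8 held 257, 244 and 196 CPM, the cluster led by C2cd4b and Depp1 89.4, 87.3 and 55.1 CPM, and the cluster led by Il1r2, Fbxo32 and Dlk2 32.1, 21.4 and 10.1 CPM. In each, alopecia gave the lowest value, and the log2 ratios to no alopecia were -0.31, -0.66 and -1.08, the first under 1.5-fold. To WT they were -0.39, -0.70 (-1.27 to -0.13) and -1.66 (-2.77 to -0.54). The first was again under 1.5-fold, and the last rested on 16 UMIs in alopecia and 15 in WT. Suprabasal keratinocytes, the differentiating layers, held 23.5, 47.1 and 25.1 CPM in all. That peak in the no-alopecia library came with a larger share of the Slc6a14 and Ovol1 cluster, which made up 18.6%, 50.4% and 32.9% of the class and held 60.1, 74.1 and 54.1 CPM. Within the other suprabasal clusters the no-alopecia library was below WT, opposite to the class as a whole, where no alopecia exceeded WT by a log2 ratio of 1.00. The Krt78 and Krt1 cluster held 2.28 against 6.38 CPM, from 16 and 8 UMIs, a log2 ratio of -1.48 (-2.79 to -0.05). The Lor cluster held 10.5 against 24.1 CPM, from 7 and 10 UMIs. Its log2 ratio of -1.20 (-2.83 to 0.34) had an interval that included equal levels. In the Krt78 and Krt1 cluster alopecia was below WT as well, by -2.55 (-5.82 to -0.22), on 2 and 8 UMIs. Alopecia was below no alopecia by -0.91 over the class and by -0.45, under 1.5-fold, in the Slc6a14 and Ovol1 cluster. Keratinocytes led by Jarid2 and other long genes, which stayed unnamed, held Itgb6 at 1.73, 67.2 and 11.3 CPM and Itgav at 77.8, 124 and 54.0 CPM. The smaller of their 2 clusters carried the Itgb6 peak, at 3.75, 252 and 33.6 CPM, from 1, 87 and 10 UMIs. The larger held 1.12, 1.04 and 5.82 CPM, from 1, 1 and 7 UMIs, with alopecia above no alopecia.

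**Figure D4:**
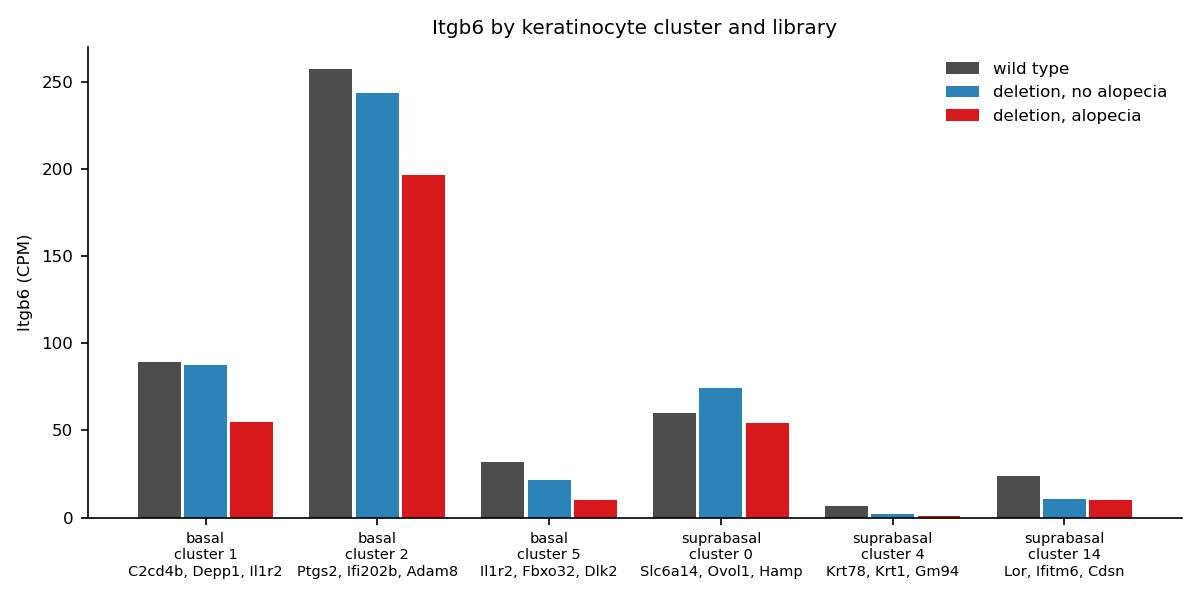
Itgb6 level in CPM, from 0, in each basal and suprabasal keratinocyte cluster, named by 3 leading genes, with 1 bar per library (grey, wild type; blue, deletion without alopecia; red, deletion with alopecia); bars have no replicate and carry no error. The alopecia bar is the lowest of its cluster in all 6 clusters. In the Krt78 and Lor clusters it rests on 2 and 1 UMIs. Log2 ratios to no alopecia there are -1.06 (-4.23 to 1.02) and -0.09 (-5.58 to 2.87), with intervals that include equal levels. In the Slc6a14 cluster the log2 ratio of alopecia to wild type, -0.15 (-0.73 to 0.46), also has such an interval.

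In the follicle, Itgb6 stood at 36.4, 43.3 and 23.7 CPM in hair germ or lower root sheath cells, lower in alopecia than in no alopecia by a log2 ratio of -0.87. Bulge or outer root sheath cells held 34.9, 20.5 and 19.1 CPM, lower in no alopecia than in WT by -0.77. Matrix cells held 17.9, 12.6 and 16.7 CPM, and upper follicle cells 3.36, 4.70 and 3.38 CPM, under 5% of the basal level and within what free RNA can carry. Leukocyte classes held 1, 0 and 2 UMIs. Melanocyte clusters held 0, 60 and 22 UMIs, in 0, 23 and 4 cells, and the RNA of Krt5, Krt14 and Krt15, keratins of basal keratinocytes, stood at 1337, 7923 and 2912 CPM in the same class. Its part in the Itgb6 counts was not tested.

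Itgav, whose alpha v chain also pairs with beta 1, 3, 5 and 8, was present in every class of both sorts. Regulatory T cells held the most, at 1094, 1118 and 1289 CPM, and their counting intervals lay above those of the next class, innate lymphoid cells, at 892, 721 and 678 CPM. Itgb8, whose product pairs with alpha v to activate TGF-beta on regulatory T cells, stood at 224, 262 and 237 CPM in that class, with intervals that overlapped. Gamma delta T cells led by Tcrg-V6 held Itgav at 364, 458 and 247 CPM, lower in alopecia than in no alopecia by a log2 ratio of -0.89, and at 420, 480 and 309 CPM in their main cluster alone, a log2 ratio of -0.63. CD8 T cells and type 1 dendritic cells were lower in the same comparison, by -0.63 and -0.70. The type 1 dendritic difference could not be computed without the cells that held T-cell receptor RNA. In the CD45- sort, glial cells held 304, 271 and 234 CPM, basal keratinocytes 126, 132 and 122 CPM and fibroblasts 87.0, 83.5 and 90.5 CPM. Basal keratinocytes thus held less Itgb6 in the alopecia library while Itgav there did not differ by 1.5-fold. Dermal papilla cells held 115, 78.5 and 130 CPM, higher in alopecia than in no alopecia by a log2 ratio of 0.73. Matrix cells held 43.2, 43.2 and 43.0 CPM.

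Cd200 separated the compartments of the skin epithelium. Upper follicle cells held 218, 199 and 206 CPM, and bulge or outer root sheath cells 124, 123 and 188 CPM. Suprabasal and basal keratinocytes held 3.11, 4.69 and 3.42 CPM and 1.26, 4.53 and 1.01 CPM, levels that free RNA can carry. After thinning to 1000 UMIs, Cd200 was found in 22.2%, 20.5% and 18.1% of upper follicle cells and in 0%, 0.325% and 0.303% of basal cells, where 0 of 128 WT cells allows up to 2.84%. Unthinned, the shares were 56.9%, 54.6% and 56.8% and 0.781%, 3.57% and 1.21%. The lower follicle was poorer in Cd200. Dermal papilla cells held 70.1, 109 and 75.6 CPM and hair germ or lower root sheath cells 64.2, 86.5 and 48.8 CPM, while matrix cells held 6.91, 6.55 and 3.83 CPM. Inner root sheath cells held 1, 0 and 0 UMIs.

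The upper follicle level did not differ by 1.5-fold between any 2 libraries, and its 4 clusters held 303, 296 and 256 CPM, 161, 180 and 196 CPM, 197, 139 and 136 CPM, and 217, 185 and 186 CPM. Alopecia therefore came with no loss of Cd200 that reached 1.5-fold in this compartment. In bulge or outer root sheath cells Cd200 was higher in alopecia, by log2 ratios of 0.61 (0.37 to 0.85) to no alopecia and 0.60 (0.23 to 0.99) to WT. In the main bulge cluster the levels were 148, 131 and 194 CPM, a log2 ratio of 0.57 between the deletion libraries, just under 1.5-fold. Hair germ or lower root sheath cells were lower in alopecia than in no alopecia, by -0.83 (-1.36 to -0.27).

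The highest Cd200 level of the sort was in blood endothelial cells, at 381, 298 and 495 CPM, above all other classes. Alopecia exceeded no alopecia by a log2 ratio of 0.73 (0.57 to 0.89), and in the main endothelial cluster alone, at 429, 412 and 612 CPM, by 0.57, under 1.5-fold. Crabp1 and Dkk2 stromal cells held 176, 173 and 254 CPM and mural cells 107, 71.1 and 148 CPM. Fibroblasts held 1.75, 1.97 and 2.63 CPM, so Crabp1 and Dkk2 cells differed from them in Cd200 as well as in the direction of Tgfb2. Melanocytes held 72.8, 68.0 and 44.9 CPM, lower in alopecia than in either other library. By the mean over cells the log2 ratio of alopecia to WT turned from -0.70 to 0.40 (-0.27 to 1.06), no longer a difference by the rule. Among leukocytes Cd200 was sparse, with CD4 T cells at 10.5, 4.04 and 9.35 CPM, and no UMI was seen in either gamma delta T class. Migratory dendritic cells held 46.1 CPM in WT and 12.3 CPM in alopecia, from 22 and 7 UMIs.

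Cd200r1, the inhibitory receptor, was confined to the CD45+ sort apart from 0, 3 and 1 UMIs in the CD45- libraries. Regulatory T cells held the most, at 132, 191 and 169 CPM, with counting intervals of 117 to 150, 162 to 223 and 153 to 186, above the next class. Conventional CD4 T cells held 70.2, 107 and 58.9 CPM. The no-alopecia library was the highest there, with log2 ratios of 0.61 to WT and, for alopecia against it, -0.86 (-1.41 to -0.31), on 99 cells in the no-alopecia library. Type 2 dendritic cells held 66.1, 68.4 and 74.1 CPM, mast cells 70.1, 43.5 and 58.7 CPM and macrophages 42.0, 52.6 and 51.2 CPM, with overlapping intervals along the order and no 1.5-fold difference. Langerhans cells held 36.2, 31.1 and 23.1 CPM, lower in alopecia than in WT by a log2 ratio of -0.65. Dendritic epidermal T cells, the gamma delta T cells that live between keratinocytes, held 4.91, 1.86 and 2.95 CPM, under 5% of the level in regulatory T cells.

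Over all 7 genes in the CD45- classes, 101 pairs of gene and class could be compared between alopecia and no alopecia, of which 12 were higher and 15 lower. Of all gene and class pairs of the sort, 5.04% were higher and 5.29% lower, and the excess among the 7 genes has no test. In the CD45+ classes 0 of 52 pairs were higher and 17 lower, 11 of them Tgfb1, beside 5.55% and 4.14% of all pairs. The no-alopecia library differed from WT in 7 pairs higher and 8 lower of 91 in the CD45- sort, beside 5.11% and 5.69% of all pairs, and in 7 higher and 0 lower of 52 in the CD45+ sort, beside 3.88% and 4.91%. The alopecia library differed from WT in 8 higher and 7 lower of 75 CD45- pairs, beside 3.59% and 4.17% of all pairs, and in 1 higher and 6 lower of 59 CD45+ pairs, beside 4.63% and 4.69%.

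**Figure D5:**
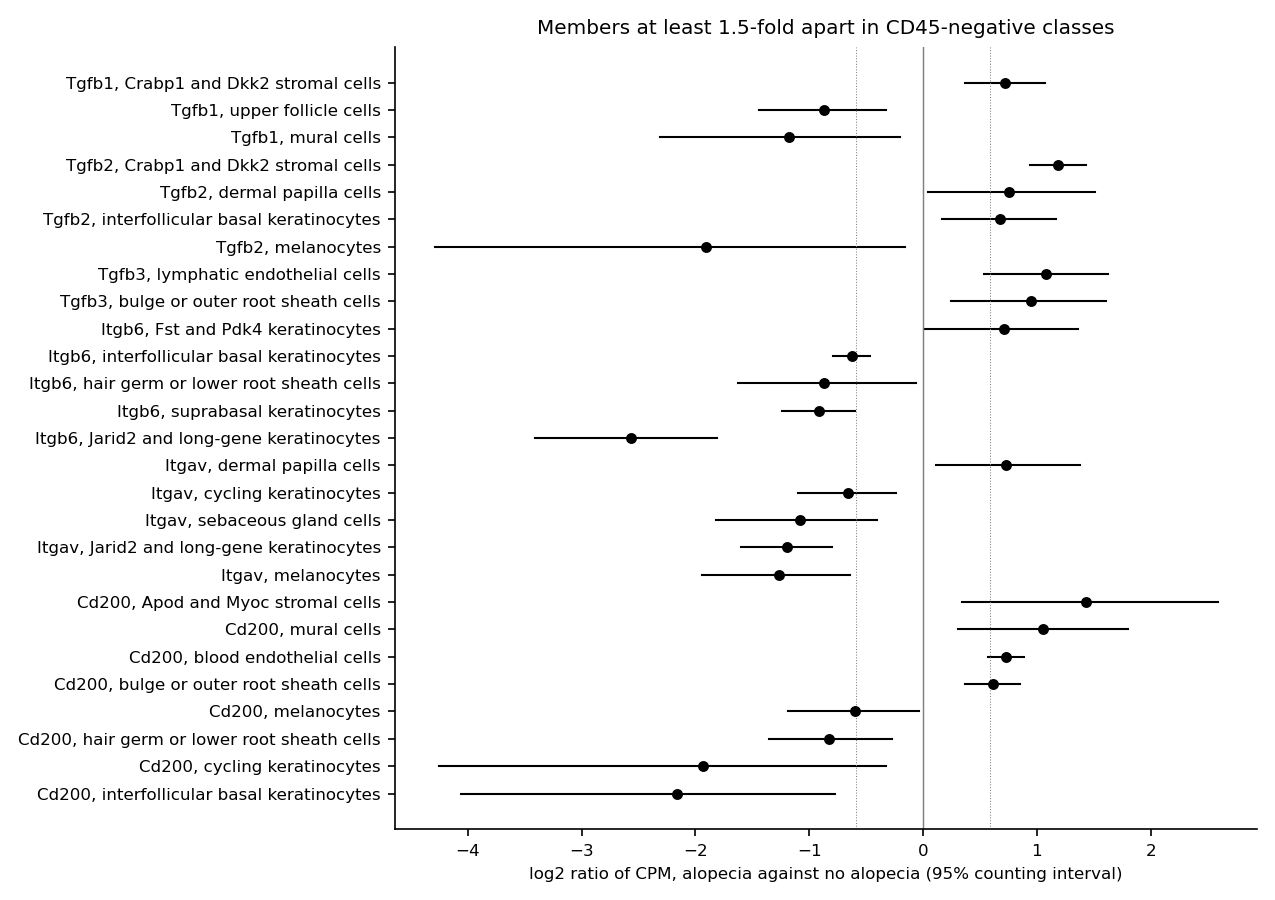
The 27 pairs of gene and CD45- class at least 1.5-fold apart between the alopecia and no-alopecia libraries, as log2 ratios with 95% counting intervals; dotted lines mark 1.5-fold. Tgfb2 and Cd200 points lie on both sides of 0, and 4 of the 5 Itgb6 points lie left of it.

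The other genes of the pathways were read from lists. Among the partners of latent TGF-beta, Thbs1, for thrombospondin 1, which can activate it, stood at 1590, 2480 and 1469 CPM in basal keratinocytes, lower in alopecia than in no alopecia by a log2 ratio of -0.76. Lrrc32, for GARP, which anchors latent TGF-beta on cell surfaces, was lower in blood endothelial cells, at 154 against 276 CPM, and in Langerhans cells, at 6.01 against 20.2 CPM. In macrophages 4 of 8 partner genes compared were higher and 0 lower, Thbs1, Itgb5 and Itgb1 among them, at 24.6 against 5.40, 42.5 against 18.9 and 187 against 120 CPM, with a median log2 ratio of 0.30 beside 0.087 over all genes of the class, of which 5.91% were higher and 3.52% lower. The part of T-cell receptor RNA, which was present in fewer macrophages of the alopecia library as given above, was not tested. In the other classes examined at most 3 partner genes differed in the same direction. The receptor genes Tgfbr1, Tgfbr2, Tgfbr3, Acvrl1 and Eng gave 48 CD45- pairs between the deletion libraries. Of these, 3 were higher in alopecia (6.25%) and 2 lower (4.17%), near the 5.33% and 4.65% of all pairs in the same classes. In the CD45+ classes 0 of 30 receptor pairs were higher and 0 lower, beside 6.12% and 3.71% of all pairs. Tgfbr2 was higher in blood endothelial cells of the alopecia library, at 320 against 186 CPM, and lower in hair germ or lower root sheath cells, at 15.8 against 37.1 CPM.

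Genes listed as induced by TGF-beta differed mostly toward lower levels in the alopecia than in the no-alopecia library in the CD45- sort. Whether TGF-beta induces each of them, such as Id1, in every class here was not tested. Over 12 CD45- classes, 11 of 169 pairs of induced gene and class were higher (6.51%) and 41 lower (24.3%), beside 5.33% and 4.65% of all pairs in those classes. Lower genes outnumbered higher ones in 8 of the classes, and higher ones outnumbered lower ones in 3. Against WT in the same 12 classes, the no-alopecia library had 40 of 166 such pairs higher (24.1%) and 17 lower (10.2%). Of all pairs there, 5.07% were higher and 5.88% lower. The alopecia library had 23 of 146 higher than in WT (15.8%) and 28 lower (19.2%), beside 3.66% and 3.75% of all pairs. Between the deletion libraries, over 8 CD45+ classes, 4 of 52 such pairs were higher in alopecia and 3 lower, beside 6.12% and 3.71% of all pairs. With every pathway list joined, 25 of 519 CD45- pairs were higher in alopecia than in no alopecia and 65 lower, beside 5.33% and 4.65% of all pairs. In the CD45+ sort 21 of 281 were higher and 20 lower, beside 6.12% and 3.71%. The list of TGF-beta signal transducers and brakes had 3 of 137 CD45- pairs higher (2.19%) and 16 lower (11.7%). Its CD45+ pairs numbered 88, with 5 higher (5.68%) and 8 lower (9.09%). Smad7, Skil and Pmepa1 are on both this list and the list of induced genes, and Thbs1 is on the partner and induced lists. Their pairs count in each of those lists but once in the joined count, so the lists are not separate results. The counts by class that follow are of induced genes. In upper follicle cells 0 of 13 were higher and 5 lower, with Id1 at 72.7 against 164 CPM, Postn at 3.98 against 17.0 CPM and Thbs1 at 2.39 against 11.6 CPM, and the median log2 ratio was -0.53 beside -0.014 over all genes, of which 3.93% were higher and 4.16% lower. In melanocytes 0 of 12 were higher and 7 lower, with a median of -0.88 beside 0.074 over all genes, of which 8.95% were higher and 7.22% lower, and keratin RNA there was lower too, as given above. In hair germ or lower root sheath cells 2 of 17 were higher and 6 lower, among the latter Ccn1, for a matricellular protein, at 64.6 against 218 CPM and Pmepa1, a feedback inhibitor of TGF-beta signalling, at 192 against 342 CPM, where 2.83% of all genes were higher and 7.60% lower. In dermal papilla cells 1 of 16 was higher, Postn at 317 against 83.5 CPM, and 6 were lower, including Tgfbi at 3.22 against 88.6 CPM and Acta2 at 78.8 against 256 CPM, beside 5.71% and 6.74% of all genes. In bulge or outer root sheath cells 3 of 16 were higher, Pmepa1 at 140 against 80.4 CPM, Cdkn2b and Tagln, and 1 was lower, beside 6.89% and 4.03% of all genes. In fibroblasts 2 of 17 were higher and 0 lower, Postn at 114 against 27.1 CPM and Ccn2 at 77.3 against 23.1 CPM, beside 4.96% and 4.05% of all genes.

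Several of these genes also respond to cell stress and dissociation. The summed RNA of 14 immediate early response genes, chosen after their values were seen, was lower in alopecia than in no alopecia in 17 of 21 CD45- classes, with a median ratio of 0.725. It stood at 0.464 in upper follicle cells, 0.468 in melanocytes, 0.477 in hair germ or lower root sheath cells, 0.471 in dermal papilla cells and 1.06 in bulge cells. Its part in the counts of induced genes was not tested. In the CD45+ classes the median ratio was 1.09, and 7 of 18 were lower.

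Among other genes of follicle immune privilege, Igf1 was higher in dermal papilla cells of the alopecia library, at 193 against 65.8 CPM. Mif was lower in blood endothelial cells, at 144 against 222 CPM, and in lymphatic endothelial cells, at 145 against 231 CPM. Cd274, for the checkpoint ligand PD-L1, was lower in the same classes, by log2 ratios of -0.93 and -1.92. Ido1, for an enzyme that depletes tryptophan, had 0, 0 and 31 UMIs in bulge or outer root sheath cells, and the 31 came from 2 cells, 23 of them from 1. In the CD200 receptor family, 1 or 2 genes at most differed in any class, with Cd200r4 higher in regulatory T cells, at 21.6 against 8.72 CPM.

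Over the 29 named classes with at least 20 cells in all 3 libraries, the genes whose mean level followed each member most closely were found among 12022 genes by Pearson correlation, as a description of classes that share libraries and depth. For Itgb6 they were Epgn (r = 0.963), Dsg3 (0.955) and Cnksr1 (0.954). For Cd200r1 they were Il1rl1 (0.967), Cd4 (0.960) and Ctla4 (0.939). Tgfb1 was followed by AU020206 (0.925), AI467606 (0.924) and Dennd4a (0.917), Tgfb2 by Bmp1 (0.917), Cdr2l (0.912) and Phldb2 (0.905), and Tgfb3 by Gdf10 (0.863), Fgfrl1 (0.860) and Igfbp5 (0.854). Itgav was followed by Tox (0.881), Cyld (0.873) and Insyn2b (0.866). Cd200 had the loosest followers, Col8a1 (0.838), Shf (0.796) and Spats2l (0.789).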

How the data were processed

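The authors deposited unnormalised UMI counts for 10x 5' HT v2 libraries, made with Cell Ranger 7.1.0 on mm10 per the submitters' processing notes. The annotation release and intron counting are not given in the sources used here. Cells had at least 500 UMIs, 300 genes and at most 10% mitochondrial UMIs, and the highest doublet scores were removed at 0.4% per 1000 barcodes. Each sort was clustered over its 3 libraries without batch correction (2000 variable genes, 30 components, 15 neighbours, Leiden resolution 1, seed 0), leaving out the 7 genes, Il2ra and the pathway lists. Clusters were named by hand from marker scores after they were seen. Interfollicular basal, some fibroblast and some lymphoid clusters had none of their own markers among their 10 leading genes. The mast, hair shaft, matrix and dendritic epidermal T classes and 1 cluster of the Trdv5 class tied with or scored below another class. CPM intervals are exact Poisson, ratio intervals conditional binomial and share intervals Clopper-Pearson, all at 95%. Sums of 0 were set to a floor of 3 counts for ratios, and a level under 5% of the highest class of its library was taken as one that free RNA can carry. The pathway genes named were up to 3 each way per list and class with the interval bound farthest from equality. Members and lists were chosen with earlier results of these data known, and the ratio script was checked on simulated data. Python 3.11.15, scanpy 1.11.5, leidenalg 0.10.2, numpy 2.4.6, scipy 1.17.1 and pandas 2.3.3 were used.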

Additional observations from a re-analysis of the deposited data

Results flagged for a closer look

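Some genes moved in opposite directions between alopecia and no alopecia in 2 classes, with intervals off 0 in both. The difference between the classes was not tested. Tgfb2 had a log2 ratio of 0.75 in dermal papilla cells and -1.90 in melanocytes, and Itgav 0.73 in dermal papilla cells and -1.27 in melanocytes. The melanocyte value of Tgfb2 rested on 3 UMIs in the alopecia library. Basal keratin RNA stood at 7923 and 2912 CPM in melanocytes of the no-alopecia and alopecia libraries, and Itgav at 132 and 122 CPM in basal keratinocytes, whose part in the melanocyte ratios was not tested. Cd200 had a log2 ratio of 1.06 in mural cells and -1.94 in cycling keratinocytes, the latter on 3 UMIs in the alopecia library.

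Cells in the CD45+ sort whose leading genes were those of fibroblasts, keratinocytes, endothelium, glia or melanocytes entered no comparison above. Itgb6 stood there at 28.3, 39.1 and 20.4 CPM in the WT, no-alopecia and alopecia libraries, and Cd200 at 43.8, 36.1 and 51.2 CPM. These 451, 468 and 754 cells held 99.3%, 100% and 98.6% of the Itgb6 UMIs of their sort and 65.6%, 82.9% and 78.6% of the Cd200 UMIs, but 2.65%, 5.15% and 2.88% of the Tgfb1 UMIs.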

How the results depend on the processing

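No paired analysis was possible because each group had 1 library per sort, and for the same reason no replicate could be left out. There were 88 differences of at least 1.5-fold. Under the 11 alternatives of filter, doublet rate, clustering and scaling, 68 to 88 of them stayed at least 1.5-fold apart in the same direction. Up to 16 could not be computed under those alternatives. Without T-cell receptor RNA in myeloid cells, 2 of the 9 differences concerned stayed, 2 did not and 5 could not be computed. Tgfb1 stayed below 0 in every CD45+ class compared between alopecia and no alopecia under every alternative. Counts that moved by over 1.5 times concerned mostly the comparisons with WT. For no alopecia against WT, CD45- higher pairs numbered 15 without doublet removal, 11 with trimmed-mean scaling and 13 by the mean over cells, against 7. CD45- lower pairs numbered 5 at 5% mitochondrial UMIs and 4 at a minimum of 50 UMIs, against 8. CD45+ higher pairs numbered 4 with trimmed-mean scaling, against 7, and lower ones 1 without T-cell receptor RNA, against 0. For alopecia against WT, CD45- higher pairs numbered 5 at the 0.8% doublet rate and at a minimum of 50 UMIs, against 8, and lower ones 4 at a minimum of 50 and 11 with no minimum, against 7. CD45+ higher pairs numbered 0 without doublet removal, at the 0.8% rate and with trimmed-mean scaling, and 2 by the mean over cells and with no minimum, against 1, and lower ones 11 at 5% mitochondrial UMIs, against 6. For alopecia against no alopecia, CD45+ higher pairs numbered 1 at resolution 2 and 2 by the mean over cells, against 0. Pathway genes lower there numbered 13 at a minimum of 50 UMIs, against 20. Reversed values were Itgb6 in Fst and Pdk4 keratinocytes (-0.45 at resolution 2, alopecia against no alopecia), Cd200 in melanocytes (0.40 by the mean over cells, alopecia against WT), Itgb6 in suprabasal keratinocytes within the Krt78 (-1.48) and Lor (-1.20) clusters (no alopecia against WT), and Itgb6 in the larger cluster of Jarid2 keratinocytes (2.49, alopecia against no alopecia, and -0.12, no alopecia against WT, on 1 to 7 UMIs), the within-cluster values being an alternative chosen after seeing the data. The causes were not tested. Shares of cells depend on depth, and 65 of 82 moved with the thinning or filter.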
